A study of Zea mays with 9 samples.

Results

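Nitrate assimilation enzymes and the genes that supply them with reductant were followed in maize root apexes as 7 genes of the 45260 identifiers in the expression table. They encode 2 nitrate reductases, nitrite reductase, ferredoxin-6, the root form of ferredoxin-NADP reductase, a glucose-6-phosphate translocator and a plastid glutamine synthetase. The genes were picked by identifier, with their expression values known. The study lists 6 of them among nitrogen genes, and the other one, a nitrate reductase, among genes responding to biotic stimulus, in each case after tests on these same libraries. Their differences to the nitrogen-deprived condition are therefore a description and carry no test.

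The plants were seedlings of the maize inbred line B73, germinated for 3 days and then kept without nitrogen before the treatments began, so that all groups share this starvation. The +NH4 group received ammonium as 1 mM NH4Cl for 24 h, the +NO3 group received nitrate as 1 mM KNO3 for 24 h, and the -N group stayed in a solution without nitrogen for the same time. The salts also differ in the accompanying ion, and the effect of chloride or potassium cannot be told apart from that of the nitrogen form. Each group had 3 biological replicates, 9 libraries in all, and each replicate was a pool of seedlings, of 10 to 15 plants according to the series record. The methods of the study give a larger pool, so its size is uncertain. Polyadenylated RNA of primary root apexes was sequenced.

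The table holds 1 value per gene and condition, as RPKM, a read density scaled to transcript length and, through the authors' quartile normalization, to library size, so levels may be set side by side between genes. The values were estimated by the authors over the 3 replicates, and no value per replicate was used here. No SD, interval or p-value was therefore computed for any number below. Whether neighbouring levels differ beyond the spread between replicates was not tested. The study reports the reads per library, but the values come without a read count per gene. A change is given as the log2 ratio of 2 RPKM values. To be called higher or lower, a gene needed a log2 ratio past 0.58 (the study's own fold limit) and 1 RPKM or more on at least one side of the comparison. The column totals were 929408 RPKM for +NH4, 915808 RPKM for +NO3 and 885720 RPKM for -N.

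In plant roots nitrate is reduced to nitrite by nitrate reductase in the cytosol, and nitrite enters the plastid, where nitrite reductase turns it into ammonium. Nitrite reductase takes its electrons from reduced ferredoxin. In a plastid without photosynthesis, ferredoxin is reduced by ferredoxin-NADP reductase at the expense of NADPH, and the NADPH comes from the oxidative pentose phosphate pathway, which is fed with glucose 6-phosphate imported through a translocator of the plastid envelope. The ammonium formed is bound to glutamate by glutamine synthetase. Genes of this route are known for their rapid induction by nitrate.

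All 7 genes had a higher RPKM in +NH4 than in -N, and also in +NO3 than in -N. In +NH4 5 of the 7 passed the fold threshold upward, against a background of 19.6% of the 21373 genes counted in this comparison. In +NO3 6 genes passed it upward, and the background was 11.9% of 21290 genes. The remaining gene, a nitrate reductase, stayed below 1 RPKM in both +NO3 and -N and was not counted. Of the 7 genes 4 were under 1 RPKM in -N, namely both nitrate reductases, nitrite reductase and the translocator. They entered a comparison with -N only through the side on which they were higher, all 4 for +NH4 and 3 for +NO3. None of the 7 was lower than -N by the threshold, and the background of lower genes was 11.3% for +NH4 and 5.46% for +NO3. Because the contrasts with -N had been used to choose the genes, nothing is read from these shares.

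**Figure D1:**
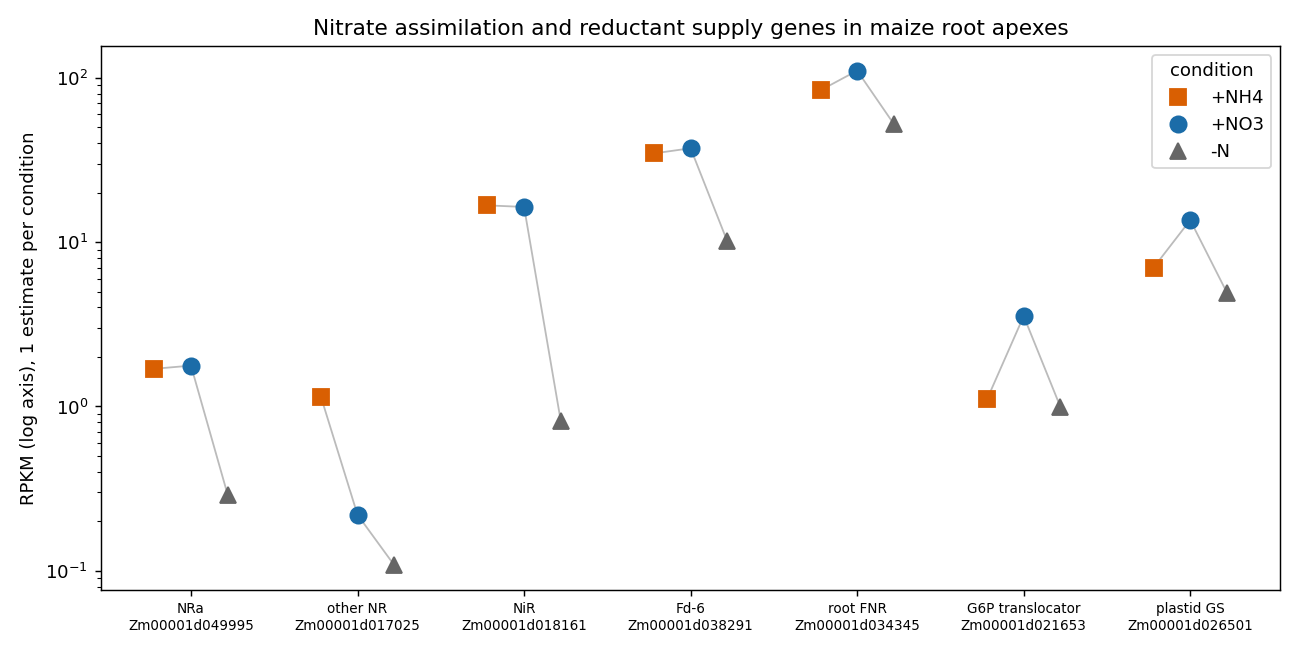
RPKM of the 7 genes on a log axis, with 1 point per condition (+NH4, +NO3 and -N from left to right for each gene) and grey lines joining the points of a gene. The -N point is the lowest for every gene; NiR is nitrite reductase, NRa and other NR are the nitrate reductases, Fd-6 is ferredoxin-6, FNR is ferredoxin-NADP reductase, G6P is glucose 6-phosphate and GS is glutamine synthetase.

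Nitrate reduction, the entry of the route, was represented by NRa (Zm00001d049995), described as an NADH-dependent nitrate reductase, and by Zm00001d017025, described as nitrate reductase without further name. NRa had 1.69 RPKM in +NH4, 1.77 RPKM in +NO3 and 0.291 RPKM in -N. Its level was thus nearly the same with both nitrogen forms and low without nitrogen. The log2 ratio to -N was 2.54 for +NH4 and 2.60 for +NO3, or 5.81-fold and 6.08-fold. Zm00001d017025 had 1.15 RPKM in +NH4, 0.219 RPKM in +NO3 and 0.109 RPKM in -N. It was the only one of the 7 genes that stood far above its +NO3 level in +NH4. The log2 ratio to -N was 3.40 for +NH4 and 1.02 for +NO3, where both values compared are well below 1 RPKM.

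Both nitrate reductase genes together reached 2.84 RPKM in +NH4, 1.99 RPKM in +NO3 and 0.400 RPKM in -N. The make-up of this sum differed between the nitrogen forms. NRa accounted for 59.6% of it in +NH4, for 89.0% in +NO3 and for 72.9% in -N. Both genes stayed low in the whole table, and the level of NRa was reached or exceeded by 92.2% of the identifiers with at least 1 RPKM in +NH4 and by 91.8% in +NO3. Reads shared by similar genes were divided between them by the authors' software, so the split between the nitrate reductases is less certain than their sum.

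Nitrite reductase (Zm00001d018161), the plastid enzyme that converts nitrite to ammonium, showed the largest ratio of the 7 genes with either nitrogen form. It had 16.7 RPKM in +NH4, 16.3 RPKM in +NO3 and 0.820 RPKM in -N. It was therefore below 1 RPKM without nitrogen and at almost the same level with ammonium and with nitrate. The log2 ratio to -N was 4.35 for +NH4 (20.4-fold) and 4.32 for +NO3 (19.9-fold). Among genes above 0 in both conditions, it ranked the 50th of 21233 by the ratio of +NH4 to -N, and the 23rd of 21147 by the ratio of +NO3 to -N. A further 77 genes in the +NH4 comparison and 86 genes in the +NO3 comparison were listed at 0 in -N and have no ratio. In level it remained a moderately expressed gene, with 42.2% of the identifiers of at least 1 RPKM equal to or above it in +NH4 and 41.7% in +NO3.

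Among the genes of reductant supply, ferredoxin-6 (Zm00001d038291), a small iron-sulphur protein that passes electrons to nitrite reductase, had 34.6 RPKM in +NH4, 37.2 RPKM in +NO3 and 10.1 RPKM in -N. It followed the same order of conditions as NRa, with close values for the nitrogen forms and a lower value in -N. The log2 ratio to -N was 1.77 for +NH4 and 1.88 for +NO3.

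The root ferredoxin-NADP reductase (Zm00001d034345), which loads ferredoxin with electrons from NADPH, had 83.7 RPKM in +NH4, 110.2 RPKM in +NO3 and 52.3 RPKM in -N. It was the most abundant of the 7 genes in every condition, and its +NH4 value lay between the other two. The log2 ratio to -N was 0.68 for +NH4, just past the threshold, and 1.08 for +NO3. It stood for 57.4% of the summed RPKM of the 7 genes in +NH4, for 60.3% in +NO3 and for 75.2% in -N.

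The glucose-6-phosphate translocator (Zm00001d021653), which brings the substrate of the pentose phosphate pathway into the plastid, had 1.11 RPKM in +NH4, 3.55 RPKM in +NO3 and 0.996 RPKM in -N. Its level in +NH4 was close to that in -N, and only the +NO3 value stood apart. The log2 ratio to -N was 0.15 for +NH4, under the threshold, and 1.83 for +NO3.

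The plastid glutamine synthetase (Zm00001d026501), described as the leaf isozyme although it was measured here in roots, binds ammonium to glutamate. It had 6.99 RPKM in +NH4, 13.6 RPKM in +NO3 and 4.93 RPKM in -N. The +NO3 value was the highest, and the +NH4 value lay closer to -N. The log2 ratio to -N was 0.50 for +NH4, just under the threshold, and 1.46 for +NO3.

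**Figure D2:**
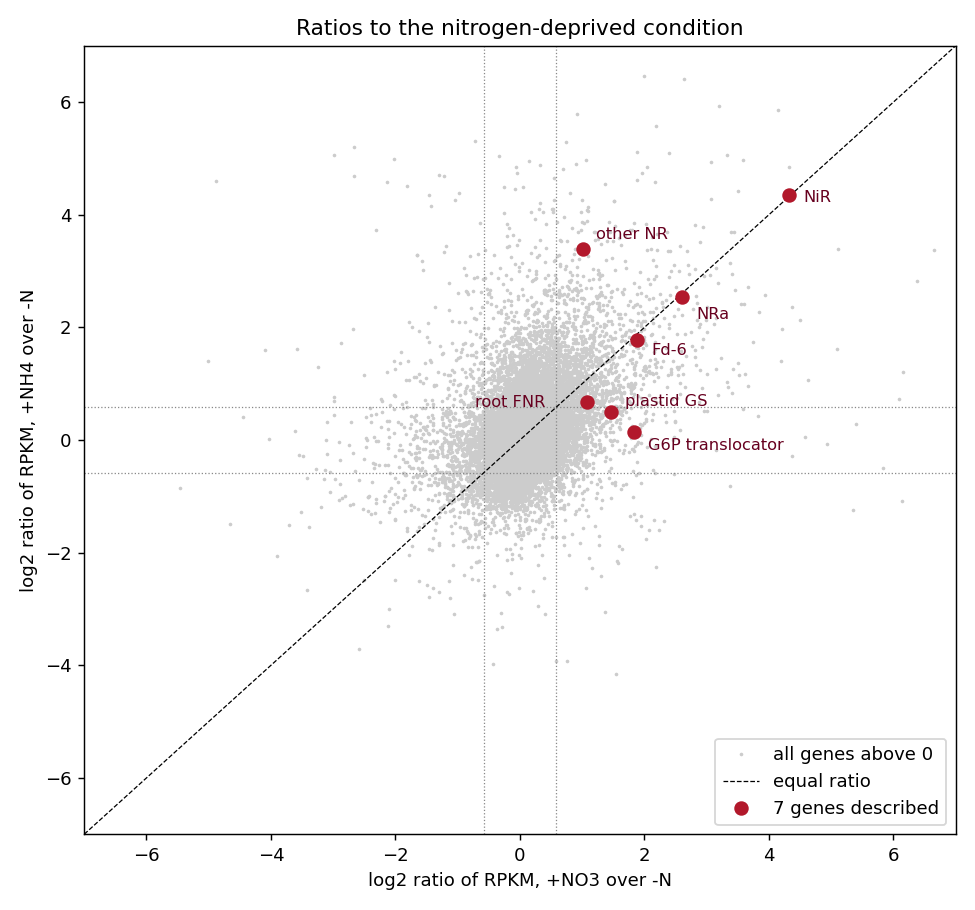
Log2 ratio of RPKM of +NH4 over -N against that of +NO3 over -N, for genes above 0 in all 3 conditions with at least 1 RPKM in one (grey) and the 7 genes (red); dotted lines mark 0.58 in either direction and the dashed line equal ratios, and 4 genes outside the axes are not drawn. Nitrite reductase (NiR), NRa and ferredoxin-6 (Fd-6) lie close to the dashed line, the other nitrate reductase (other NR) lies above it, and root FNR, plastid GS and the G6P translocator lie below it.

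The comparison of ammonium with nitrate does not use the -N values, but it is not free of the choice of genes. The study had grouped these genes by their pattern over all 3 conditions, with Zm00001d017025 among genes raised by ammonium and with the translocator and glutamine synthetase among genes raised by nitrate, so the calls below are again a description. By the fold threshold 1 gene was higher in +NH4 than in +NO3, against a background of 15.5% of 21660 genes, and 2 were lower, against 14.1%. The other 4 genes lay within the threshold, as did 70.4% of all genes counted. The gene higher in +NH4 was the nitrate reductase Zm00001d017025, which reached 1 RPKM in +NH4 alone, with a log2 ratio of +NH4 over +NO3 of 2.39. Those lower in +NH4 were the glucose-6-phosphate translocator, with a log2 ratio of -1.68, and plastid glutamine synthetase, with -0.96. The ratio of the translocator was the 232nd lowest of 21505 genes above 0 in both conditions. With genes listed at 0 in +NH4 included, 1.45% of the genes counted had a ratio as low or lower. Nitrite reductase had a log2 ratio of 0.03, NRa of -0.06, ferredoxin-6 of -0.10 and root ferredoxin-NADP reductase of -0.40. For comparison, the quartiles over all genes counted were -0.36 and 0.34, with a median of -0.03. The first 3 of these 4 genes thus lay inside the middle range of all genes, and the reductase lay just outside it. A small ratio between single values does not show that the levels were equal.

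**Figure D3:**
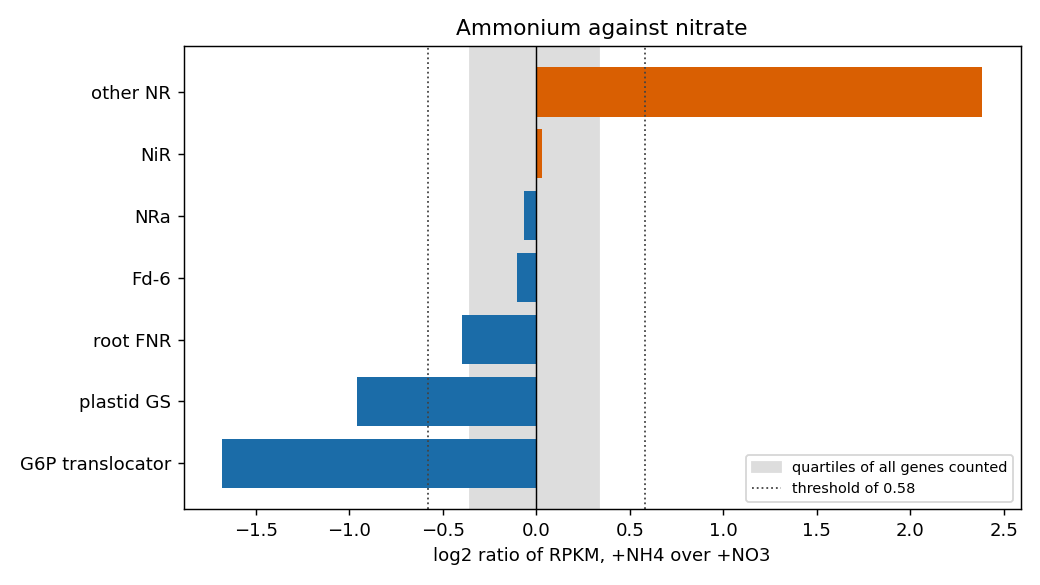
Log2 ratio of RPKM of +NH4 over +NO3 for each of the 7 genes; bars to the right (orange) are higher in +NH4 and bars to the left (blue) are higher in +NO3, the grey band spans the quartiles of all genes counted and the dotted lines mark the threshold of 0.58. Zm00001d017025 (other NR) is the single bar beyond the threshold on the right, and the G6P translocator and plastid GS are beyond it on the left.

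Expressed as RPKM added over -N, the gain in +NH4 was 102.3% of the gain in +NO3 for nitrite reductase, 94.8% for NRa and 90.4% for ferredoxin-6. It was 54.3% for root ferredoxin-NADP reductase, 23.8% for plastid glutamine synthetase and 4.32% for the glucose-6-phosphate translocator. The gain in +NH4 thus ran from close to that in +NO3 down to a small part of it. The other nitrate reductase differed from these 6 genes, with a gain of 1.04 RPKM in +NH4 and of 0.111 RPKM in +NO3. Both gains are taken over the same -N value, so an error in that value moves them together.

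The differing ratios changed the order of the genes by level. In +NH4 root ferredoxin-NADP reductase was the highest, followed by ferredoxin-6, nitrite reductase, plastid glutamine synthetase, NRa, Zm00001d017025 and the translocator. The translocator came last with 1.11 RPKM, close to the 1.15 RPKM of Zm00001d017025. In +NO3 the first 4 places were the same, and the translocator stood above both nitrate reductases. In -N nitrite reductase stood lower, below glutamine synthetase and the translocator, and the rest of the order was as in +NO3.

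Set against NRa, nitrite reductase was 9.86 times as high in +NH4, 9.22 times in +NO3 and 2.81 times in -N. The level of ferredoxin-6 was 2.07 times that of nitrite reductase in +NH4, 2.27 times in +NO3 and 12.3 times in -N. The level of root ferredoxin-NADP reductase was 5.01 times that of nitrite reductase in +NH4, 6.74 times in +NO3 and 63.7 times in -N. Ferredoxin-6 and its reductase thus stood far above nitrite reductase without nitrogen, and much less so with either nitrogen form. Ferredoxin-6 itself had 0.413 times the level of the reductase in +NH4, 0.337 times in +NO3 and 0.194 times in -N. At the end of the route, nitrite reductase was 2.39 times as high as plastid glutamine synthetase in +NH4 and 1.20 times as high in +NO3, and had 0.166 times its level in -N. In -N nitrite reductase had 0.820 RPKM and NRa 0.291 RPKM, both under 1 RPKM, so the -N ratios that hold them are less certain. The shift of the nitrite reductase ratios with nitrogen mostly restates its large ratio to -N.

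**Figure D4:**
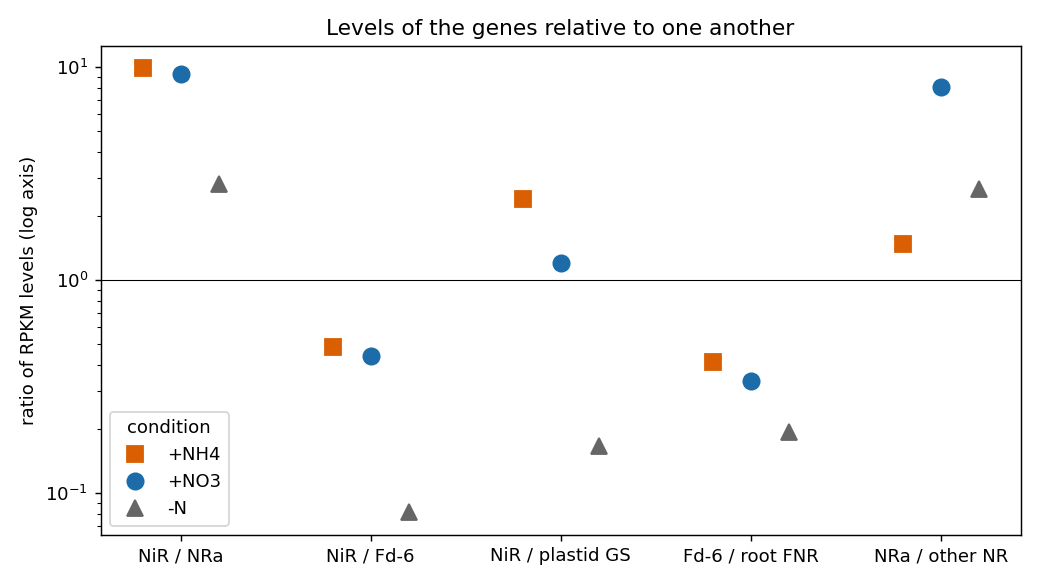
Ratio of the RPKM levels of pairs of the 7 genes in +NH4, +NO3 and -N, on a log axis with a line at 1. The ratios of nitrite reductase (NiR) to NRa, ferredoxin-6 (Fd-6) and plastid GS are lowest in -N, and that of NRa to the other nitrate reductase (other NR) is highest in +NO3. The other nitrate reductase was below 1 RPKM in +NO3 and in -N, so its ratios there are less certain.

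Beyond the 7 genes, 12 groups of the pathway were looked for among the 249 genes that carry a description in the study's selected lists. They covered nitrate and nitrite reductases, siroheme and molybdenum cofactor synthesis, ferredoxins and their reductases, sugar phosphate translocators, the pentose phosphate pathway, glutamine and asparagine synthetases, glutamate synthases and glutamate dehydrogenases. Only 6 groups held any described gene, 8 genes in all, of which 1 was not among the 7. That gene is Zm00001d021141, described as a ferredoxin. It had 9.06 RPKM in +NH4, 13.6 RPKM in +NO3 and 4.18 RPKM in -N. The log2 ratio to -N was 1.12 for +NH4 and 1.70 for +NO3, both past the threshold, and that of +NH4 over +NO3 was -0.59, just past it. Like ferredoxin-6 it was higher with both nitrogen forms than in -N, at a lower level. A further gene, Zm00001d006119, is described as a ferredoxin-like protein and fell outside the wording used for the ferredoxin group, and it is given here after its values were seen. It had 6.39 RPKM in +NH4, 10.9 RPKM in +NO3 and 3.15 RPKM in -N, with log2 ratios to -N of 1.02 for +NH4 and 1.79 for +NO3 and of -0.77 for +NH4 over +NO3. The selected lists hold genes chosen on these libraries, so these counts are no sample of the pathway.

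The genes with the most similar pattern were sought by the distance between the pairs of log2 ratios to -N, over 3 conditions and 21608 genes. Nitrite reductase had no gene within a distance of 0.25. The nearest were Zm00001d020251, at 0.50, with 1.38 RPKM in +NH4, 0.955 RPKM in +NO3 and 0.0479 RPKM in -N, and Zm00001d027742, at 0.81, with 5.37 RPKM in +NH4, 2.86 RPKM in +NO3 and 0.2504 RPKM in -N. Both are without a description in the sources used here. Within the same distance there were 5 genes for the nitrate reductase Zm00001d017025, 6 for NRa, 14 for the translocator, 27 for ferredoxin-6, 68 for glutamine synthetase and 181 for root ferredoxin-NADP reductase. Few genes have large ratios to -N, so these counts also follow the size of the ratios. They are no measure of how particular a pattern is. Of the 14 genes that were nearest or next to nearest to one of the 7, only Zm00001d040445, described as a RING/U-box protein, had a description. It was the nearest gene to root ferredoxin-NADP reductase, at a distance of 0.02, with 8.22 RPKM in +NH4, 10.7 RPKM in +NO3 and 5.08 RPKM in -N.

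Genes looked at as markers of the root apex were present in every condition. They were taken from the study's selected lists of genes responding in these libraries, so their differences are a description. Proliferating cell nuclear antigen (Zm00001d018415), a gene of dividing cells, had 39.1 RPKM in +NH4, 72.96 RPKM in +NO3 and 78.3 RPKM in -N. SOMBRERO (Zm00001d016119), named after a root cap gene of Arabidopsis, had 2.84 RPKM in +NH4, 4.77 RPKM in +NO3 and 1.17 RPKM in -N. The alpha tubulin gene Zm00001d021891 had 403.7 RPKM in +NH4, 392.2 RPKM in +NO3 and 642.1 RPKM in -N. The study lists it for the cytoskeleton, so its presence does not single out the root apex. SOMBRERO was higher than in -N with both nitrogen forms, as the 7 genes were. The other markers went the opposite way. Proliferating cell nuclear antigen was lower than in -N past the threshold in +NH4, and slightly lower, within the threshold, in +NO3. The alpha tubulin gene was lower than in -N past the threshold with both nitrogen forms. The part of any of these markers in the differences of the 7 genes was not tested. In such a bulk sample, more cells of a type and more RNA per cell cannot be told apart.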

How the data were processed

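RNA of 9 libraries (3 per condition) was analysed from one table. Per the labels and the methods of the study, the authors trimmed reads with Trimmomatic 0.33, mapped them with TopHat2 2.0.13 to the maize assembly B73 RefGen_v4 with its Gramene annotation, removed alignments of very low mapping quality, and estimated RPKM with Cuffdiff of Cufflinks 2.2.1, with quartile normalization and with reads of multiple positions divided among them. The deposited RPKM values are 1 estimate per gene and condition over 3 replicates. Quartile scaling means that changes in many genes can shift all others slightly.

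Log2 ratios were computed without a pseudocount (Python 3.11.15, numpy 2.4.6, pandas 2.3.3, matplotlib 3.10.9). A gene entered a comparison from 1 RPKM upward on either side, and was called beyond a log2 ratio of 0.58. Genes listed at 0 in one condition were called by direction. The counting was tested on simulated data. The genes, lists and settings were chosen with earlier results of these data known. Named genes are the 7 genes, described genes of the pathway groups, and the 2 genes nearest in pattern to each of the 7 where described, and for nitrite reductase in any case. Also named are the ferredoxin-like gene Zm00001d006119 and the marker genes, which were picked from the study's selected lists. The distance of 0.25 was set later. Alternatives were pseudocounts of 0.1 and 1 RPKM, 3 scalings, other minimums, a threshold of 1, and gene models alone. Descriptions came from the study's selected lists, since none of the 7 identifiers matched the RefSeq table. Coordinates, promoter motifs, sequences and leaf marker genes were not analysed here.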

Additional observations from a re-analysis of the deposited data

How the results depend on the processing

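Every log2 ratio of the 7 genes kept its side of the threshold of 0.58 under a pseudocount of 0.1, a median ratio of 0, the same column total and the same upper quartile. With a pseudocount of 1, one ratio went under it, that of Zm00001d017025 for +NO3 over -N (0.14), whose values lie below the pseudocount. The ratio of the same gene for +NH4 over -N was then 0.95. For nitrite reductase the log2 ratio of +NH4 over +NO3 was -0.04 with the same upper quartile, the opposite sign of the small ratio as deposited. No scaling moved the median of all genes by over 0.1. Among the 8 pathway genes, 1 was higher in +NH4 than in +NO3, both as deposited and with a median ratio of 0. The share of all genes counted was 15.5% as deposited. The number lower was 3 as deposited, against 14.1% of all genes counted, and 2 with a median ratio of 0. The call lost was that of the ferredoxin Zm00001d021141.

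With a minimum of 5 RPKM, chosen for the 7 genes after seeing the data, 3 were counted higher in +NH4 than in -N, 4 higher in +NO3 than in -N, 0 higher and 1 lower in +NH4 than in +NO3. With a threshold of 1, 1 was lower in +NH4 than in +NO3, among the 7 and among the 8 pathway genes. Plastid glutamine synthetase in this comparison and root ferredoxin-NADP reductase for +NH4 over -N lay under that threshold. Over all genes, a threshold of 1 left 2129 higher and 591 lower for +NH4 over -N, 1116 and 541 for +NO3 over -N, and 1706 and 919 for +NH4 over +NO3. Without a minimum these counts were 8534 and 5432, 7089 and 3931, and 6822 and 6847. With 5 RPKM, 2747 were higher and 1619 lower for +NH4 over -N, and 1179 higher and 633 lower for +NO3 over -N. For +NH4 over +NO3, 2307 were then higher and 1799 lower. Shares of the genes counted were not computed for these settings, so nothing is read from the counts of the 7 or the 8 genes. No paired analysis was possible because the table holds 1 value per condition, and for the same reason no replicate was left out. The lack of read counts per gene limits the values below 1 RPKM most.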
